A study of Homo sapiens with 4 samples.

Results

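The glutamate and GABA receptor genes are the subunit genes of the channels and G protein-coupled receptors that answer the neurotransmitters glutamate and GABA. They were chosen by name alone, from AMPA, delta, kainate and NMDA receptor subunits (GRIA, GRID, GRIK, GRIN), metabotropic glutamate receptors (GRM), GABA-A and rho subunits (GABR) and GABA-B subunits (GABBR). In the GENCODE 29 annotation 47 gene names fit the rule, and 39 of them were among the 31907 gene names listed in any of the 4 count libraries. The other 8 names were in no library and were taken as 0 counts.

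The libraries came from HGC-27, an established human cell line from a gastric cancer. In all, 2 libraries (PBS replicates 1 and 2) were from cells given PBS, the control, and 2 (rIL-17B replicates 1 and 2) were from cells given 200 ng/ml of recombinant interleukin-17B (rIL-17B), each for 48 h. The labels name no genetic change in any library, and they do not say whether replicates were separate cultures, so the spread between them may be technical. The RNA was copied with an oligo-dT primer and amplified by PCR (Smart-seq2), and the library protocol speaks of monocytes although the labels name HGC-27 cells.

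Glutamate is the main excitatory transmitter of the brain and GABA the main inhibitory one. Ionotropic glutamate receptors are tetramers that pass cations, GABA-A receptors are pentamers that pass chloride, and the metabotropic and GABA-B receptors act as dimers through G proteins. Outside the brain the same genes are read at low levels in many tissues and tumour lines.

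Library totals were between 12888029 and 17555879 counts, so the smallest level that could be shown, 3 counts, was between 0.171 and 0.233 CPM, the count per 1e6 counts of the library. rIL-17B replicate 1 stood apart from the other 3 libraries in genes other than the receptors too, and whether its label is right was not tested. The summed CPM of 9 mesenchymal markers was 51110 and 50140 with PBS, 1014 in rIL-17B replicate 1 and 42730 in replicate 2. This sum was mostly the matrix genes FN1, COL1A1, COL1A2 and COL3A1. In rIL-17B replicate 1, FN1 was at 0.453% of the PBS mean, but ZEB1, VIM, THY1 and CDH2 were at 24.8% to 43.7%. TWIST1 was at 101% there. With 0.5 CPM added, 8 of the 9 mesenchymal markers were at least 2-fold below the PBS mean in that library, beside 18.6% of all 16361 genes tested. In rIL-17B replicate 2 there were 0, beside 0.575%. The 12 neuronal markers summed to 116 and 131 CPM with PBS, 58.0 in rIL-17B replicate 1 and 96.4 in replicate 2, and the neuronal marker ELAVL4 was at 0 in every library. The highest were MAP2 (57.3, 77.2, 31.5 and 44.3 CPM in the same order), STMN2 (21.6, 13.6, 0 and 18.1) and SNAP25. The last was close to even, with 22.8, 22.9, 24.9 and 23.1 CPM. Of the 7 neuronal markers tested, 5 were at least 2-fold below the PBS mean in rIL-17B replicate 1 with 0.5 CPM added. In rIL-17B replicate 2 there were 0, and the shares of all genes tested were 18.6% and 0.575%. The 12 astrocyte and glial markers summed to 603 and 679, then 130 and 499 CPM, and SOX10 was at 0 in every library. In the same order OLIG1 had 736, 916, 0 and 486 counts and OLIG2 had 634, 869, 0 and 515. PDGFRA had 2440, 2116, 1 and 2113 counts and GJA1 had 3654, 2594, 4 and 3343. In contrast, CSPG4 and MBP were at 77.3% and 162% of the PBS mean in rIL-17B replicate 1. CSPG4, at 99.7 CPM, held most of the sum in that library. By the same 2-fold measure, 6 of the 8 glial markers tested were lower in rIL-17B replicate 1 (18.6% of all genes tested). In rIL-17B replicate 2 there was 1 (0.575%). The 17 gastric epithelial markers summed to 818 and 825, then 1861 and 1043 CPM, mostly the keratin genes KRT8 and KRT18. Not every epithelial marker was high in rIL-17B replicate 1, since KRT19 had 47, 43, 1 and 58 counts and GATA6 had 241, 147, 23 and 212, and TFF1 was at 0 in every library. The 10 leukocyte markers summed to between 8.55 and 11.2 CPM, but in rIL-17B replicate 1 the sum was mostly CSF1R (8.14 CPM), and 7 of the 10 were at 0 there against 1 and 1 with PBS and 0 in rIL-17B replicate 2. Their part in the results on the receptors was not tested, and fewer cells of a type and less RNA per cell cannot be told apart in bulk libraries. Where a result below rests on rIL-17B replicate 1, values are given by library, and for some genes the fit without that library is given too.

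Most receptor genes were read in these cells, nearly all of them weakly, and the number that were silent depended on the library. Of the 47 genes, 11 were at 0 counts in PBS replicate 1, 13 in PBS replicate 2, 24 in rIL-17B replicate 1 and 14 in replicate 2. The 2 PBS libraries and rIL-17B replicate 2 thus lay within 3 genes of each other, and rIL-17B replicate 1 had 10 more silent genes than the next library. As shares of the 47 genes these were 23.4%, 27.7%, 51.1% and 29.8%, against 19.0%, 19.5%, 27.1% and 19.3% of all 19936 protein-coding names of GENCODE 29 in the same order. With silence defined as fewer than 3 counts, the numbers were 16, 16, 29 and 19.

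In every library 8 genes were silent, 17% of the family beside 13.8% of all protein-coding names. Among these were GRM5, a group I metabotropic receptor, the GABA-A subunits GABRA4, GABRA6, GABRB2 and GABRG1, and the rho subunits GABRR1 and GABRR3. GABRD, the delta subunit of receptors outside synapses, had 3 and 4 counts with PBS and 0 in both rIL-17B libraries, levels at the limit of what 3 counts can show. GRIK3 (1 count) and GABRG3 (2 counts) were listed in rIL-17B replicate 1 alone.

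Another 11 genes were silent in rIL-17B replicate 1 and in no other library. The share over all genes was not counted for this class. Of all protein-coding names 27.1% were silent in that library, against 19.0% and 19.5% with PBS and 19.3% in rIL-17B replicate 2. Among the 11 were GRIA1, GRIA2, GRIA3, GRID1, GRIN2A, GRIN2B, GRM2, GRM6, GABRR2 and GABBR2. For 4 of them (GRIN2A, GRIN2B, GRM2 and GRM6) no other library had more than 9 counts, and for GRID1 and GABBR2 rIL-17B replicate 2 had 8 and 7. In contrast, GRIA1, GRIA2, GRIA3 and GABRR2 were at 0 there with at least 10 counts in each of the other 3 libraries, 4 of the 21 receptor genes tested, beside 4.71% of all 16361 genes tested.

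The level of the 22 genes that reached 10 counts in at least 1 library spread widely. In CPM per kilobase of exon (RPKM), GABRE was the highest in PBS, with 9.04 and 9.34 in the 2 libraries, followed by GABBR1 with 4.53 and 5.06. GRIN2D came next with 1.78 and 2.00 RPKM. The 2 PBS values of GRIK1, GRIK2, GRIK5 and GRIA3, between 1.15 and 1.96 RPKM, overlapped in range with those of GRIN2D or of each other, so the order among these genes was not set beyond the spread of the libraries. A further 12 of the 22 genes had means between 0.0780 and 0.712 RPKM. GABRE alone held 42.3% and 39.8% of the receptor counts with PBS and 46.9% and 44.9% with rIL-17B.

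**Figure D1:**
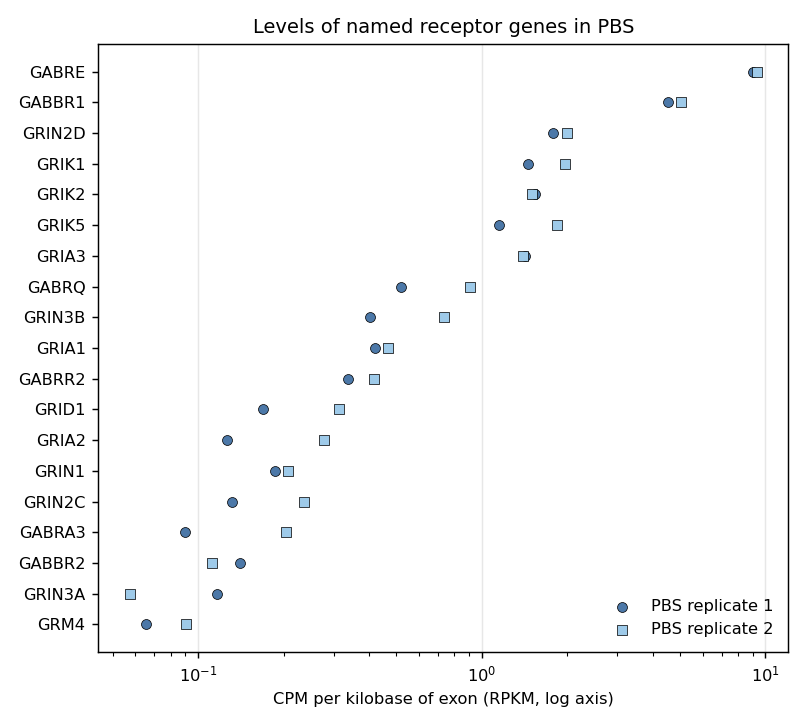
CPM per kilobase of exon (RPKM, log axis) of 19 of the 22 receptor genes with at least 10 counts in a library, in PBS replicate 1 (circles) and PBS replicate 2 (squares). Of the genes shown, GABRE and GABBR1 lie highest and GRM4 is lowest with a mean of 0.0780.

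The comparison of rIL-17B with PBS asks which receptor genes the cytokine altered in these cells. With all 4 libraries no receptor gene passed. By the quasi-likelihood F test of edgeR, adjusted after Benjamini and Hochberg, 0 of the 21 receptor genes that passed the low-count filter had an adjusted p under 0.05, beside 0% of the 16361 genes tested, and the smallest adjusted p of a receptor gene was 0.661. At an unadjusted p under 0.05 there was 1 receptor gene, GRM4, beside 1.38% of all genes. DESeq2 gave 0 receptor genes at either threshold.

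Even so, the 2 rIL-17B libraries did not stand alike to PBS. The median log2 fold change of the 21 genes was -0.86, beside -0.03 over all genes tested, and 16 of the 21 were below 0. Taken alone with 0.5 CPM added, rIL-17B replicate 1 had a median log2 ratio to the PBS mean of -1.21 over the 21 genes (all genes 0.08) and rIL-17B replicate 2 a median of -0.10 (all genes 0.00). With TMM scaling (trimmed mean of M values) the medians in replicate 1 were -1.29 for the receptors and -0.04 for all genes. In rIL-17B replicate 1, 12 of the 21 genes were at least 2-fold below the PBS mean, beside 18.6% of all genes, and 0 were 2-fold above it, beside 2.61%. In rIL-17B replicate 2, GRID1 alone was 2-fold below, beside 0.575% of all genes, and 0 were 2-fold above, beside 0.0611%. The 2 rIL-17B libraries were 2-fold apart for 8 of the 21 genes (16.9% of all genes), and the 2 PBS libraries for 1 (0.636%).

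**Figure D2:**
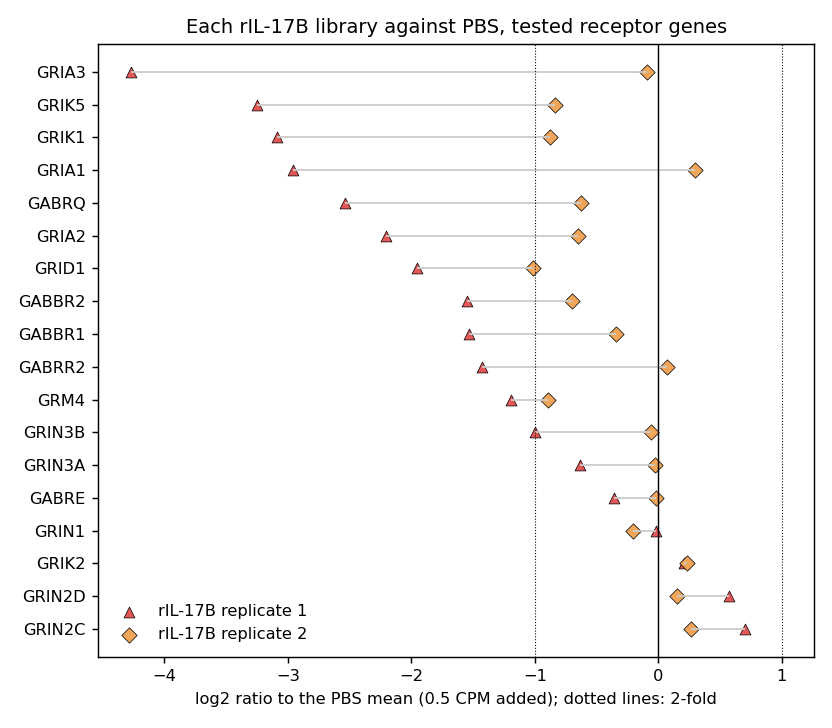
Log2 ratio of rIL-17B replicate 1 (triangles) and rIL-17B replicate 2 (diamonds) to the PBS mean, with 0.5 CPM added, for 18 of the 21 tested receptor genes; a grey line joins the pair and dotted lines mark 2-fold. Of the triangles 11 lie beyond 2-fold below PBS, and of the diamonds 1 (GRID1).

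Both rIL-17B libraries lay below both PBS libraries for 10 of the 21 genes, among them GRIA2, GRIA3, GRID1, GRIK1, GRIK5, GRM4, GABRQ, GABBR1 and GABBR2, beside 27.5% of all genes tested. Both lay above for GRIK2 and GRIN2D, beside 31.5% of all genes. When each rIL-17B library had to be 2-fold from each PBS library, 0 genes were lower (0.104% of all genes) and 0 higher (0% of all genes). Without rIL-17B replicate 1, when the remaining treated library is assumed to vary like the PBS pair, edgeR called GRIK1 and GRIK5 lower of the 22 receptor genes tested (2.30% of all genes) and 0 higher (0.643%). Without rIL-17B replicate 2, it called 14 lower (31.9% of all genes) and 2 higher (23.2%), GRIN2D among the latter. The number of calls thus rested on which treated library was kept.

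AMPA receptor subunits carry fast excitatory transmission, and 3 of the 4 genes had counts in every library but rIL-17B replicate 1. GRIA3 (chrX:123184153-123490915, plus strand, GRCh38) had 147 and 117 counts with PBS, 0 in rIL-17B replicate 1 and 150 in replicate 2. In CPM these were 9.24, 9.08, 0 and 8.54, so replicate 1 was at least 44.6-fold below the PBS mean of 9.16 ± 0.116 (SD, n = 2), while replicate 2 was 1.07-fold below it. GRIA1 had 51, 46, 0 and 75 counts in the same order, at least 16.5-fold lower in rIL-17B replicate 1 and 1.26-fold higher in rIL-17B replicate 2. GRIA2, whose edited subunit blocks calcium entry through the channel, had 18 and 32 counts with PBS, then 0 and 17. The 3 genes together held 216 and 195 counts with PBS, 0 in rIL-17B replicate 1 and 242 in replicate 2. GRIA4 had between 3 and 6 counts in every library, so AMPA subunit reads were not entirely missing from rIL-17B replicate 1. By edgeR the log2 fold change of GRIA3 was -1.10 with an SE of 2.08 (adjusted p = 0.786), and without rIL-17B replicate 1 it was -0.11 with an SE of 0.21 (adjusted p = 0.896).

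The delta receptors bind cerebellin bridges at synapses and hardly act as glutamate-gated channels. GRID1 had 16 and 24 counts with PBS, 0 in rIL-17B replicate 1 and 8 in replicate 2. Both treated libraries lay below both PBS libraries, 3.15-fold below the PBS mean in rIL-17B replicate 2 and at least 6.99-fold below in replicate 1. Its log2 fold change by edgeR was -2.58 with an SE of 1.36 and an adjusted p of 0.661, and without rIL-17B replicate 1 it was -1.61 with an adjusted p of 0.263.

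Kainate receptors modulate transmission on both sides of the synapse, and their 3 expressed subunits split. GRIK1 (chr21:29536933-29940033, minus strand) had 98 and 107 counts with PBS, 6 in rIL-17B replicate 1 and 65 in replicate 2, or 6.16, 8.30, 0.411 and 3.70 CPM. It was 17.6-fold below the PBS mean in the former and 1.95-fold below it in the latter. GRIK5 (chr19:41998321-42069498, minus strand), which encodes a high-affinity subunit that needs a partner such as the product of GRIK1 or GRIK2, had 92 and 119 counts with PBS, then 5 and 70. It was 21.9-fold lower in rIL-17B replicate 1 and 1.88-fold lower in rIL-17B replicate 2. Without rIL-17B replicate 1 the log2 fold changes by edgeR were -0.96 for GRIK1 and -0.90 for GRIK5. Only rIL-17B replicate 2 was then left of the treated libraries, so their spread was not measured. With all 4 libraries the same fit gave -1.82 (SE 1.14) and -1.80 (SE 1.25), each with an adjusted p of 0.661. GRIK2 did not share this pattern. Its counts were 186 and 147 with PBS and 196 and 240 with rIL-17B, its CPM was 11.7, 11.4, 13.4 and 13.7, and its log2 fold change by edgeR was 0.16, with an SE of 0.18 and an adjusted p of 0.696. GRIK4 had at most 2 counts in a library.

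NMDA receptors need glutamate and a co-agonist, and pass calcium. This was the family whose summed level did not lie lower in rIL-17B replicate 1, with 14.5 and 17.4 CPM in PBS, 19.6 in rIL-17B replicate 1 and 16.5 in replicate 2. GRIN1, the obligate subunit, had 20, 18, 19 and 19 counts, near the same number in every library. GRIN2D, a GluN2 subunit typical of the developing brain, had 144 and 131 counts with PBS and 212 and 188 with rIL-17B. Its CPM was 9.05, 10.2, 14.5 and 10.7, and its log2 fold change by edgeR was 0.31 with an SE of 0.22 and an adjusted p of 0.661. The rIL-17B values lay above the PBS values, with a gap of less than 1 CPM between rIL-17B replicate 2 and PBS replicate 2. GRIN2C, the cerebellar GluN2 subunit, had 18, 26, 42 and 35 counts. GRIN2A and GRIN2B, the main GluN2 subunits of the forebrain, had at most 9 and 7 counts and 0 in rIL-17B replicate 1. The glycine-binding GluN3 subunits were GRIN3A, with 15, 6, 4 and 12 counts, and GRIN3B, with 21, 31, 10 and 31. For both, rIL-17B replicate 2 lay within the PBS range and rIL-17B replicate 1 below it.

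Metabotropic glutamate receptors signal slowly through G proteins and were little read, with summed levels of 3.77 and 5.12 CPM in PBS and 1.16 and 2.39 in rIL-17B. GRM4, a group III receptor that lowers cyclic AMP, had 17 and 19 counts with PBS, then 4 and 8. Its CPM was 1.07, 1.47, 0.274 and 0.456, the groups did not overlap, and rIL-17B replicate 1 was 4.65-fold and replicate 2 was 2.79-fold below the PBS mean. By edgeR it had the smallest unadjusted p of the receptor genes, 0.0317, with a log2 fold change of -1.82, an SE of 0.54 and an adjusted p of 0.661. Without rIL-17B replicate 1 the log2 fold change was -1.45 and the adjusted p 0.372, on counts that were all below 20. The other group III receptors GRM6, GRM7 and GRM8 and the group II receptors GRM2 and GRM3 had at most 6 counts in any library.

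**Figure D3:**
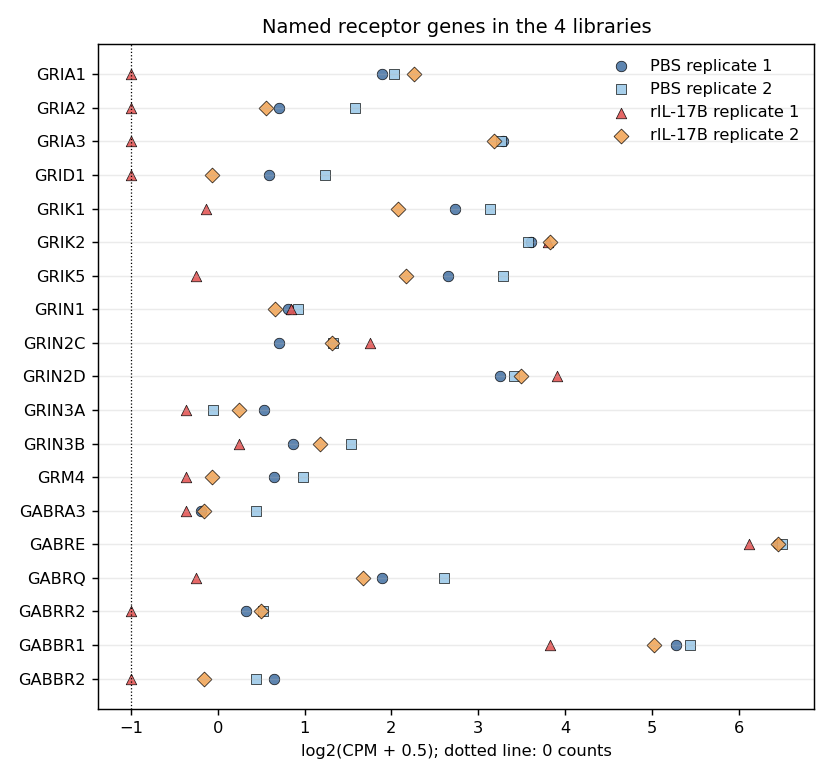
Log2 of CPM plus 0.5 for 19 of the 22 receptor genes with at least 10 counts in a library, with 1 marker for each of the 4 libraries; the dotted line at -1 is 0 counts. rIL-17B replicate 1 (triangles) lies on that line for 6 genes and above the other libraries for GRIN2C and GRIN2D.

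GABA-A receptors, the targets of benzodiazepines and many anaesthetics, usually combine alpha, beta and gamma or other subunits. Here the alpha subunits were scarce. GABRA3, with 6, 11, 4 and 7 counts, was the only alpha subunit with 10 counts in a library, and it did not pass the filter for the test with all 4 libraries. GABRA5 had between 1 and 5 counts and GABRA2 a single count. The epsilon subunit GABRE, on chromosome X at chrX:151953124-151974680 (minus strand, GRCh38), had the highest level of the receptor genes, with 1382 and 1157 counts in PBS and 1006 and 1527 in rIL-17B. Its CPM was 86.9, 89.8, 68.8 and 87.0, with only rIL-17B replicate 1 outside the range of the rest, 1.28-fold below the PBS mean. The log2 fold change by edgeR was -0.24 with an SE of 0.20 and an adjusted p of 0.661.

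GABRQ, the theta subunit, and GABRA3 lie near GABRE on chromosome X, GABRQ on the plus strand and the other two on the minus strand. GABRQ had 51 and 72 counts with PBS, 5 in rIL-17B replicate 1 and 47 in replicate 2. Its fold below the PBS mean was 12.9 in rIL-17B replicate 1, against 1.28 for its neighbour GABRE and 2.25 for GABRA3, so the 3 neighbours did not differ from PBS by the same factor in that library. In rIL-17B replicate 2 the values were 1.64, 1.02 and 1.54.

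GABRP, the pi subunit known from reproductive tissues, had between 1 and 3 counts, and GABRB1 had 5 counts in PBS replicate 2 alone. Of the rho subunits, best known from the retina, GABRR2 had 12 and 12 counts with PBS, 0 in rIL-17B replicate 1 and 16 in replicate 2, at least 4.11-fold below the PBS mean in the former.

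GABA-B receptors are dimers in which the GABBR1 product binds GABA and the GABBR2 product couples to the G protein. GABBR1, at chr6:29555629-29633976 on the minus strand of GRCh38, had 610 and 552 counts with PBS, 200 in rIL-17B replicate 1 and 561 in replicate 2. Its CPM was 38.4, 42.8, 13.7 and 32.0, below PBS in both treated libraries, by 2.97-fold in the former and 1.27-fold in the latter. By edgeR the log2 fold change was -0.87 with an SE of 0.51 and an adjusted p of 0.661, and without rIL-17B replicate 1 it was -0.35 with an SE of 0.12 and an adjusted p of 0.0914. Of its exon bases, 722 (8.52%) are shared with UBD on the same strand and with OR2I1P on the other, so some of its reads are uncertain. The GABBR2 counts were 17 and 11 with PBS, 0 in rIL-17B replicate 1 and 7 in replicate 2. GABBR1 was read far above its partner in all 4 libraries, with 4.79 against 0.126 RPKM as means in PBS.

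By summed CPM the GABA-A subunits came first in every library, and the GABA-B subunits second except in rIL-17B replicate 1, where the NMDA subunits did. All receptors together summed to 206 and 226 CPM with PBS, 147 in rIL-17B replicate 1 and 194 in replicate 2. AMPA subunits summed to 14.0 and 15.4 CPM with PBS, 0.205 and 14.0 with rIL-17B. The kainate sum was 23.8 and 28.9 CPM with PBS, then 14.2, nearly all of it GRIK2, and 21.4. GABA-B subunits summed to 39.4 and 43.7, then 13.7 and 32.4 CPM, and GABA-A subunits to 108 and 112, then 97.8 and 106 CPM.

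**Figure D4:**
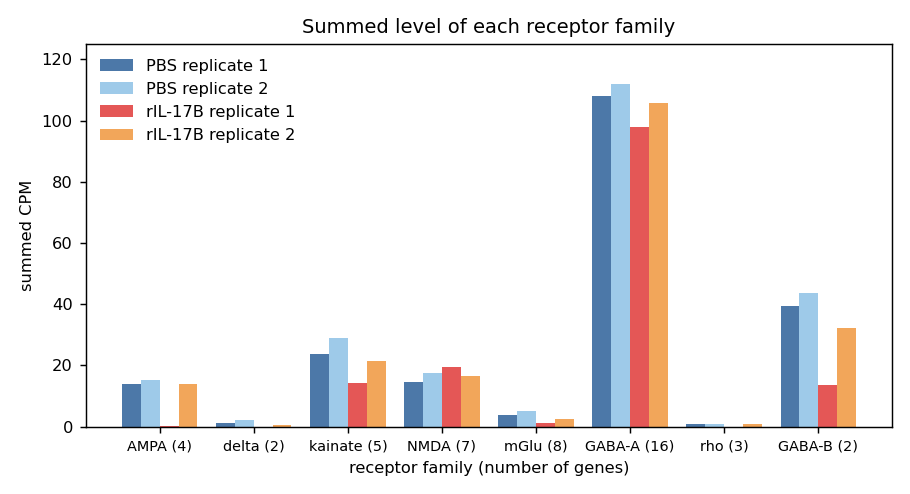
Summed CPM of each receptor family (number of genes in brackets) in the 4 libraries. The AMPA bar of rIL-17B replicate 1 stands at 0.205 and its NMDA bar, at 19.6, is the tallest of that family.

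Upstream sequence is shown for 5 genes with unlike patterns, to set the letters beside the levels. GABRR2 and GABRQ were at 0 or 12.9-fold lower in rIL-17B replicate 1, GRIK2 and GRIN2D were not lower in either treated library, and GABRR3 was silent in every library. RefSeq (GRCh38.p14) gave the 250 bases before the start of 34 of the 47 genes, taking the start farthest 5' where several were listed, and these 5 were drawn from the 16 windows that hold no exon base of GENCODE 29. The windows are chr6:89315300-89315549 (minus strand) for GABRR2, chrX:152637645-152637894 (plus) for GABRQ, chr6:101393458-101393707 (plus) for GRIK2, chr19:48393418-48393667 (plus) for GRIN2D and chr3:98035316-98035565 (minus) for GABRR3. The GRIK2 window lies inside the gene as GENCODE draws it, between exons. Each runs 5' to 3' with every CpG in capitals.
GABRR2: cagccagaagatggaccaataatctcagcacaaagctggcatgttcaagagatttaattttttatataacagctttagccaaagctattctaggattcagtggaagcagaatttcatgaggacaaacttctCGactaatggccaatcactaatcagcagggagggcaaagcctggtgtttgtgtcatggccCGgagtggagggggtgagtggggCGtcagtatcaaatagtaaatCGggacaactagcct
GABRQ: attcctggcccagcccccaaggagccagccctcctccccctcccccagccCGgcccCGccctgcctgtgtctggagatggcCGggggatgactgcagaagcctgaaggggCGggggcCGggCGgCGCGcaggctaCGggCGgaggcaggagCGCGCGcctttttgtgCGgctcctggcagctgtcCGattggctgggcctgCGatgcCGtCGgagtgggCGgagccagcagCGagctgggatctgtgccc
GRIK2: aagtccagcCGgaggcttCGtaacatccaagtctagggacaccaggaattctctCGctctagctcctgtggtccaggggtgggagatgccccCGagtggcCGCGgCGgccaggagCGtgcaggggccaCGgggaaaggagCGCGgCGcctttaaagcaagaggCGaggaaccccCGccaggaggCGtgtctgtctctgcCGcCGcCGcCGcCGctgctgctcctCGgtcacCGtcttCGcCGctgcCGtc
GRIN2D: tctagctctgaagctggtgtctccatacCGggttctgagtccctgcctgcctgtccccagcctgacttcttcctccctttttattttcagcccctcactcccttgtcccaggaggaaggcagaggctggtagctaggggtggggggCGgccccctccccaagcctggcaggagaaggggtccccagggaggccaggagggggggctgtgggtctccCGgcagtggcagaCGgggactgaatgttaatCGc
GABRR3: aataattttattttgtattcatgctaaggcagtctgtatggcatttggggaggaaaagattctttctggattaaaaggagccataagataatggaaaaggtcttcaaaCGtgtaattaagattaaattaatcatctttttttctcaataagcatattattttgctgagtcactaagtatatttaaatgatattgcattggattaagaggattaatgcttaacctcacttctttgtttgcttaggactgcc

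GABRQ and GRIK2 hold 20 and 25 CpG in these windows, GRIN2D 5, GABRR2 4 and GABRR3 1. Over the 34 genes the number ran from 1 to 44. Its median was 14 for the 13 of them with at least 10 counts in a library, 11 for the others and 6 for the 7 that were silent everywhere, beside 10 over all 27305 genes of the table. At least 1 CpG was present in 93.6% of all windows. The GC box GGGCGG, read on both strands, was in 17 of the 34 and in 42.2% of all windows, and each GC box contains a CpG. TATAAA on either strand was in 1 of the 34, GABRR2, and in 11.2% of all. CAGCACC, the first part of the element bound by the neuronal repressor REST, was in 3 (GRIN2B, GRM2 and GRM6) and in 6.04% of all. These matches describe letters in a window.

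Genes of the proteins that carry, anchor and feed these receptors were taken from 5 lists, and 0 of them passed edgeR's quasi-likelihood test (Benjamini-Hochberg adjusted p of at least 0.661). Several, however, were at or near 0 in rIL-17B replicate 1. For each list the genes with the highest CPM, which is not set per length, and with the largest log2 fold changes are given by their counts in PBS replicates 1 and 2 and rIL-17B replicates 1 and 2. AMPA and kainate auxiliary subunits numbered 14, with 7 tested, and 4 of the 7 were at least 2-fold below PBS in rIL-17B replicate 1 (18.6% of all genes tested) and 0 in replicate 2 (0.575%). NETO2, an auxiliary subunit of kainate receptors, had 1115 and 950 counts with PBS and 1510 and 1307 with rIL-17B. CACNG7, an AMPA receptor regulatory protein (TARP), had 289, 301, 0 and 289 counts, and its relative CACNG8 had 198, 257, 4 and 176. GSG1L, another AMPA auxiliary protein, had 38, 48, 0 and 44. These were named for their level or fold change, and the other AMPA auxiliary genes tested did not all go the same way. CACNG4, also a TARP gene, had 42, 42, 81 and 63 counts and was not lower. CNIH2 had 22, 30, 11 and 19 counts, and CNIH3 had 43, 37, 7 and 45. Both were lower in rIL-17B replicate 1, at 40.6% and 17.2% of the PBS mean CPM with nothing added. With 0.5 CPM added, as in the count of 4 above, CNIH2 was less than 2-fold lower.

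Of the 19 scaffold genes 15 were tested, and 6 were at least 2-fold lower (18.6% of all genes tested) and 1 higher (2.61%) in rIL-17B replicate 1, the latter GRIP2, with 49, 41, 99 and 72 counts, named after its value was seen. The highest were DLG1, with 2052, 1541, 1691 and 2092 counts, GRIPAP1, with 968, 906, 1260 and 1157, and DLGAP4, with 801, 737, 537 and 839. The largest fold changes were those of SHANK2 (13, 30, 1 and 12 counts), SHANK1 (58, 58, 0 and 57) and HOMER2 (161, 149, 15 and 168), postsynaptic scaffold genes whose lowest value was in rIL-17B replicate 1.

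Glutamate transport and metabolism held 20 genes, with 13 tested and 3 at least 2-fold lower in rIL-17B replicate 1, a share near the 18.6% of all genes tested. GLUL, which makes glutamine from glutamate, had 1742 and 1706 counts with PBS, 0 in rIL-17B replicate 1 and 1516 in replicate 2. The glutamate transporters SLC1A1, with 233, 203, 12 and 203 counts, and SLC1A3, with 988, 863, 369 and 810, were also lowest there. In contrast, the amino acid transporters SLC38A2 (12023, 10019, 10229 and 13117 counts) and SLC7A11 (3846, 2818, 4115 and 4331) were close to even in CPM, and SLC38A1 had 7750, 5977, 12324 and 9309 counts.

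Among the 11 genes of GABA synthesis, transport and breakdown 7 were tested, and 3 were at least 2-fold lower (18.6% of all genes tested) and 1 higher (2.61%) in rIL-17B replicate 1. The higher gene was the GABA transporter gene SLC6A13, with 51, 35, 129 and 69 counts, also named after its value was seen. GAD1, which makes GABA, had 60 and 88 counts with PBS, then 0 and 59. ABAT, the first enzyme of its breakdown, had 242, 235, 1 and 178 counts, and the transporter SLC6A12 had 29, 64, 2 and 39. The aldehyde dehydrogenase genes ALDH9A1 (964, 815, 1179 and 1196) and ALDH5A1 (521, 434, 679 and 602) and the monoamine oxidase gene MAOB (242, 203, 451 and 281) were not lower in that library.

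Of the 20 partners of GABA receptors 17 were tested, and 3 were at least 2-fold lower in rIL-17B replicate 1, no larger a share than the 18.6% of all genes tested. They were the 3 with the largest fold changes. KCTD12, which binds GABA-B receptors, had 1286, 928, 12 and 1154 counts, and KCTD16 had 176, 134, 4 and 153. NLGN1, a neuroligin, had 165, 158, 0 and 107. The highest were UBQLN1 (2894, 2396, 3452 and 3397 counts), CLPTM1 (1967, 1691, 1774 and 2089) and GABARAPL1 (1725, 1212, 1370 and 1854).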

How the data were processed

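The authors deposited 1 table of raw counts per library, the whole number of reads on each gene name, with genes at 0 left out. Per the submitters' processing notes, which give no order or role, HISAT2 2.1.0, Bowtie2 2.2.3, TopHat2, HTSeq 0.6.0 and the build hg38 were used. Which annotation was counted, and whether strand was used, is not given in the sources used here. Names repeated with the same count (83 to 98 per library) were kept once, and 22 to 25 date-like names per library were left out. Totals were then 15904594 and 12888029 counts with PBS and 14615341 and 17555879 with rIL-17B. CPM used these totals, and RPKM used exon lengths and positions from GENCODE 29 (GRCh38). Groups were compared with edgeR 4.0.16 in R 4.3.3 (TMM, filterByExpr, quasi-likelihood F test, Benjamini-Hochberg over 16361 genes, threshold 0.05), tested on simulated data. The simulated libraries all had the spread of the PBS pair. That test therefore does not show what the fit can find when a treated library stands apart. The alternatives were DESeq2 1.42.0, other filters and scalings, the replicate number as a block, and leaving out each library. Each rIL-17B library alone against the PBS mean, and genes at 0 in rIL-17B replicate 1, were alternatives chosen after seeing the data. Single comparisons added 0.5 CPM. Genes with at least 10 counts in any library are named with all counts, except that single values of 5 receptor genes, which stay in the counts and sums over the family, are not reported here, and of the partner lists those with the highest CPM or largest fold change. The receptor genes and lists were chosen with earlier results of these data known. A fold against 0 counts uses a floor of 3 counts per library. Floors cover counting error only, since PCR copies are not independent molecules.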

Additional observations from a re-analysis of the deposited data

How the results depend on the processing

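The number of receptor genes past an adjusted p of 0.05 was 0 with upper-quartile scaling, with no filter, with a minimum of 10 counts per library, with the replicate block and with DESeq2, and ran from 0 to 16 when 1 library was left out (16 without rIL-17B replicate 2, 2 without rIL-17B replicate 1). All 79 log2 fold changes of the 18 receptor genes given singly under the settings that kept 4 libraries had the direction and side of the threshold of the reported fit. Of the others, the sign turned without rIL-17B replicate 1 for GRIA1 (0.33, range -8.66 to 0.33 over the libraries left out) and GABRR2 (0.12, from -6.66), by construction the values of the treated library that remained. Same-numbered PBS and rIL-17B libraries deviated together with a correlation of 0.08 over 16361 genes. Each deviation rests on the difference of only 2 libraries, so this value cannot show whether they were paired. The numbers were not taken to pair the libraries because the labels do not say that same-numbered ones were handled together. At an unadjusted p under 0.05 by edgeR there were 3 of 39 receptor genes with no filter (GRID1, GRIN2A and GRM4), beside 879 of all 31907 genes. There was 1 of 10 with a minimum of 10 counts per library, beside 462 of 13542. With the replicate block there were 0 of 21, beside 173 of 16361. Of the receptor genes 2-fold apart in each pair of a treated and a control library, there were 0 with 0.5 CPM added or with TMM scaling, 3 with no CPM added (GRID1, GRM4 and GABBR2), 1 with 0.1 CPM added (GRM4), and 0 to 11 when 1 library was left out (11 without rIL-17B replicate 2). With 0.5 CPM added, 0.104% of all genes were lower and 0% higher by this measure. The share over all genes was not counted under the other settings.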
